A study of Homo sapiens with 4 samples.

Results

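The 3′ part of 28S rRNA, the large rRNA of the 60S ribosomal subunit, was followed here as the 1473 nucleotides from position 3598 to the last nucleotide, 5070, which are positions 11530 to 13002 of a 47S pre-rRNA that counts 13780 nt in the deposited coordinates. Its borders are positions, set without a measured value, and it makes up 29.1% of the length of 28S. The libraries are cDNA of RNA that crosslinked to NKRF carrying a Flag-His tag, with the tag expressed by itself as the background. The cells were HEK293 (human embryonic kidney) of the Flp-In T-Rex type, in which a construct at a fixed site is switched on by tetracycline, and all 4 groups were induced for 24 h. In the UV groups, tag alone and NKRF, living cells were irradiated at 254 nm. In the PAR groups, tag alone and NKRF, cells took up 100 µM 4-thiouridine, a photoreactive uridine analogue, for 6 h and were irradiated at 365 nm. The tagged NKRF came from the induced construct, and whether each line was a single clone is not given in the sources used here. Each group was 1 library, so replicates are lacking for every difference below, and intervals cover counting error only.

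The 3′ part of 28S contains the catalytic core of the ribosome. Its domain V folds into the peptidyl transferase centre, where peptide bonds are made between the tRNAs held by the P loop and the A loop, and its domain VI carries the sarcin-ricin loop, which the elongation factors touch. The mature 3′ end is set when the 3′ external transcribed spacer (3′ ETS) is cut away from the precursor. NKRF, a protein with a G-patch domain, is known as a cofactor of the helicase DHX15 and a partner of the exonuclease XRN2 in pre-rRNA processing.

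The sequences on which the results turn were read from the nucleotide letters of the deposited profile. The first, labelled core, runs from letters of the peptidyl transferase centre to the sarcin-ricin loop, positions 4438 to 4616 of 28S. It is set by its landmarks and is not the whole catalytic core. Capitals mark 3 landmarks: GATGTCG and CGTGAGA, searched for the peptidyl transferase centre, and GTACGAG for the sarcin-ricin loop. They were found by letters alone, without a map of the rRNA structure. The second, positions 4748 to 4797, is the window that was higher with NKRF in both crosslinking modes, with a capital on the T most often changed there. The third is the mature 3′ end, positions 5041 to 5070 in capitals, followed by the first 20 nt of the 3′ ETS.
core, 4438 to 4616: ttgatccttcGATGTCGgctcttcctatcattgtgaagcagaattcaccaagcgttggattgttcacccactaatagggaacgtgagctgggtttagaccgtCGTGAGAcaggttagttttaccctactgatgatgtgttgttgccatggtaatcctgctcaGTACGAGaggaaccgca
window, 4748 to 4797: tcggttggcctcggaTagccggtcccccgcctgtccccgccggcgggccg
3′ end, 5041 to 5070 and on: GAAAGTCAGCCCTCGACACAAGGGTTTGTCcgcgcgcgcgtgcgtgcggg

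Another 7 sites, each with 10 nt on either side and the site itself in capitals, carry the changes in the cDNA described below. Positions 3677, 4530 and 4910 were substituted with and without NKRF. Positions 3993 and 4807 were the T most often changed after 4-thiouridine, and positions 4351 and 4555 were the T most often deleted after UV in the NKRF and the tag-only library.
3677: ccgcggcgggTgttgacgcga
3993: gcccccccggTgtccccgcga
4351: ccttctgaccTtttgggtttt
4530: gtgagctgggTttagaccgtc
4555: gacaggttagTtttaccctac
4807: gcccccccccTccacgcgccc
4910: cgcggccggaGaggcggccgc

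Coverage is given in normalised hits, the number of reads over a nucleotide per 1000000 reads of the library. With UV, 1 read was worth 1.19 normalised hits for the tag alone and 0.920 for NKRF. With PAR it was worth 8.91 and 4.43. At least 4005 and 20966 reads lay behind the 3′ part of 28S with UV and 93 and 674 with PAR, so the tag-only PAR profile is by far the thinnest and every PAR ratio rests on it. Its header is also shifted by 1 column, and its substitutions were not analysed here.

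The first comparison asked how much of the recovered rRNA came from the 3′ part of 28S. Per 1000000 reads of each library, the 3′ part was recovered more with NKRF in both modes. Absolute amounts of RNA were not measured. Its mean coverage was 158 normalised hits with the tag alone and 686 with NKRF after UV, 4.33-fold more (95% interval 4.19 to 4.48), and 19.4 and 69.4 after PAR, 3.58-fold more (2.88 to 4.50). Relative to the rest of 28S, positions 1 to 3597, it was recovered less. It held 35.8% of the 28S coverage with the tag alone and 20.5% with NKRF after UV, 1.75-fold less (1.71 to 1.80), and 43.9% and 5.70% after PAR, 7.70-fold less (6.49 to 9.14). Against its length share of 29.1%, the 3′ part was over-represented in both tag-only libraries and under-represented in both NKRF libraries. Mean coverage of the rest of 28S went from 116 to 1093 normalised hits with UV and from 10.1 to 470 with PAR, 9.42-fold (9.20 to 9.65) and 46.4-fold (38.7 to 56.0).

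As a share of the whole 47S pre-rRNA, the direction differed between the modes. The share was 4.75% with the tag alone and 8.56% with NKRF after UV, 1.80-fold higher (1.74 to 1.86), and 8.47% and 2.55% after PAR, 3.32-fold lower (2.67 to 4.14). The 18S share moved with this scale, from 82.2% to 42.2% with UV and from 68.3% to 4.20% with PAR. With 18S left out of the total, the share of the 3′ part was lower with NKRF in both modes, at 14.8% against 26.7% with UV, 1.81-fold lower (1.76 to 1.86), and 2.66% against 26.7% with PAR, 10.1-fold lower (8.36 to 12.1). Leaving out positions where the tag-only PAR library was at 0 reduced the PAR log2 ratio of 47S shares from -1.73 to -0.70. A direction for the 3′ part is therefore given below with its scale.

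Along the 3′ part the UV libraries shared one outline, with and without NKRF. All 1473 nt were covered in both. The highest point was near the mature 3′ end, at position 5028 with 1145 normalised hits for the tag alone and at position 5029 with 4800 for NKRF. These maxima stood at 12.1 and 11.6 times the median of the 3′ part. The last 73 nt, positions 4998 to 5070, held 23.6% of the coverage of the 3′ part with the tag alone and 23.2% with NKRF, from 4.96% of its length. In 50 nt windows, the 3 with the highest means were the same in both UV libraries, namely 4998 to 5047 (837 normalised hits with the tag alone and 3605 with NKRF), the final 23 nt from 5048 (578 and 2351) and 4448 to 4497 in the peptidyl transferase centre (474 and 1928). Across the 30 windows the UV profiles had a Spearman correlation of 0.87. The windows are neighbours in one RNA and share base composition, so the value is a description.

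The NKRF PAR profile had other high points. Its maximum lay at positions 4806 and 4807, with 469 normalised hits at each, and the highest windows were 3598 to 3647 (208 normalised hits), 4798 to 4847 (207) and 4748 to 4797 (181). The means of these 3 windows with the tag alone after PAR were 43.5, 15.8 and 0. With the tag alone the maximum was a plateau of 13 nt, positions 3799 to 3811, with 98 normalised hits or about 11 reads. The highest windows with the tag alone were 4398 to 4447 (58.4) and, as after UV, 4998 to 5047 (57.5) and the final window (52.9). With NKRF these windows had means of 91.2, 101 and 87.0. Across the 30 windows the Spearman correlation was 0.59 for the NKRF libraries, 0.65 for the tag-only libraries and 0.46 for the PAR libraries. Each of these was below the 0.87 of the UV libraries.

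**Figure D1:**
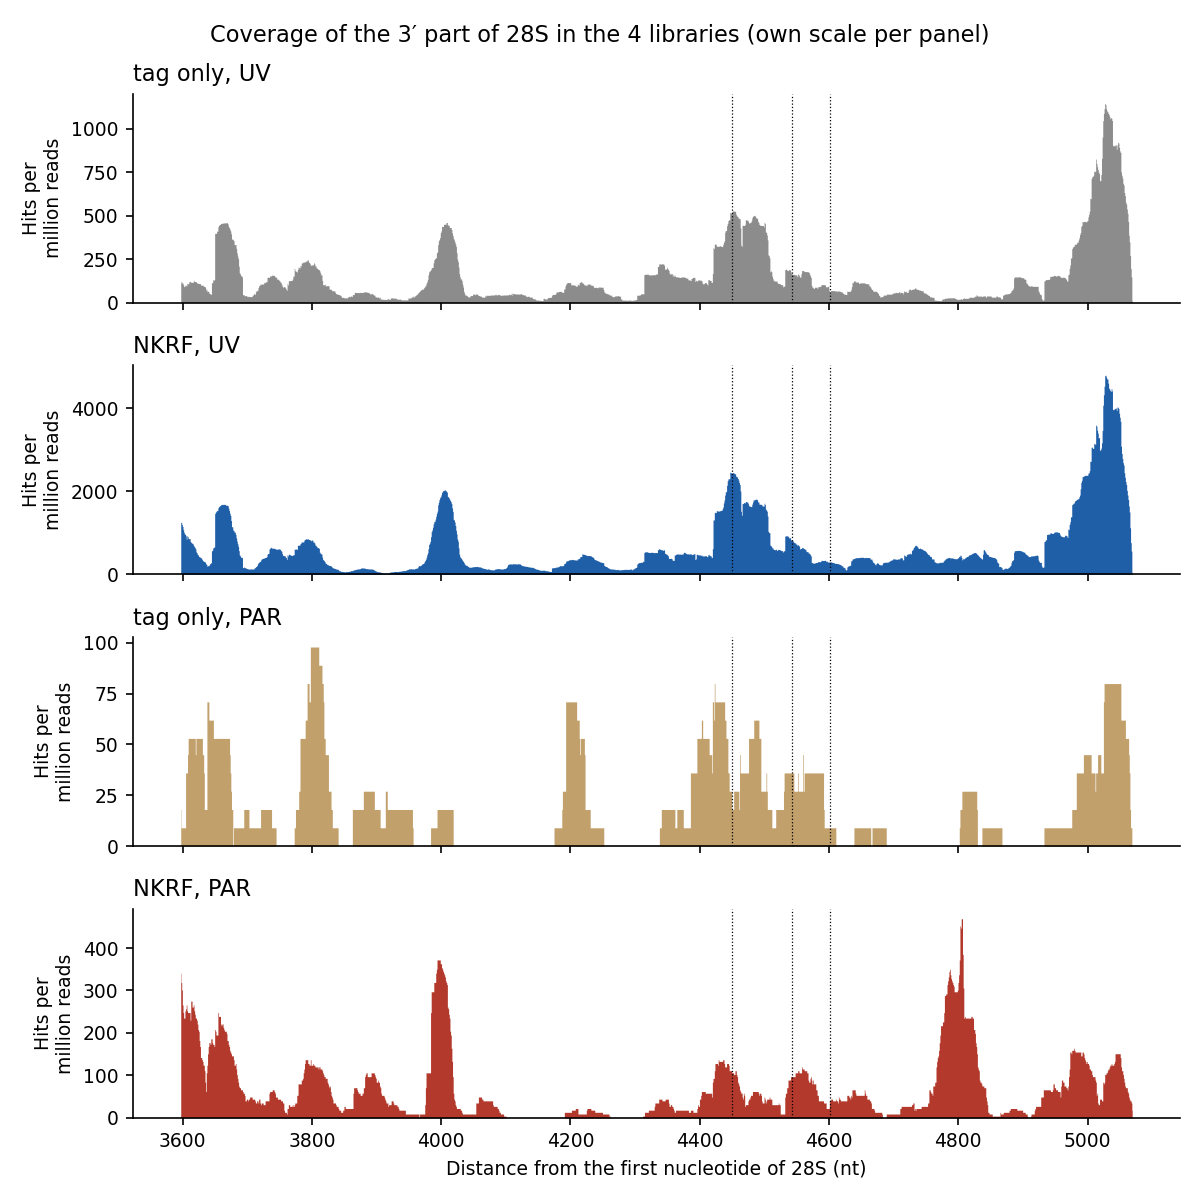
Coverage of the 3′ part of 28S in normalised hits (hits per 1000000 reads, own scale in each panel) against the distance from the first nucleotide of 28S in nt, for the 4 libraries. Dotted lines mark the 3 landmarks of the peptidyl transferase centre and the sarcin-ricin loop. Both UV profiles are highest near the mature 3′ end, at 1145 and 4800, while the NKRF PAR profile is highest at positions 4806 and 4807, at 469.

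The second comparison asked which windows of 50 nt differed between NKRF and the tag alone in their share of the 47S coverage. A window was examined where either library had a mean of at least 20 normalised hits, and called at a 2-fold change with a pseudocount of 1. After UV, 8 of 30 windows were called higher and 0 lower, against 59.8% higher and 5.98% lower among the 251 examined windows of the whole 47S pre-rRNA. The log2 ratio ranged from -0.06 to 2.62 with a median of 0.76, against a median of 1.57 over all examined 47S windows. After PAR 25 windows were examined, with 2 higher and 17 lower, against 45.0% and 34.7% of 242. Their log2 ratios ranged from -4.87 to 3.93, the highest in a window where the tag-only library was at 0, with a median of -1.83, against 0.30 over all 47S windows. In both modes the share of windows called higher was under that of the whole 47S pre-rRNA. After UV the interval lay above 1-fold in 28 of all 30 windows, among them the 8 called higher, so it does not set these 8 apart. For the 17 lower after PAR it lay below 1-fold in 13. Scaled to all reads, UV gave 30 windows called higher and 0 lower, and PAR gave 17 and 1. The lower window was 4198 to 4247, where the PAR mean was 38.4 normalised hits with the tag alone and 15.1 with NKRF. With 18S left out of the total, UV gave 0 and 13, and PAR 1 and 22.

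Only 1 window, 4748 to 4797, was higher in both modes, of 25 examined in both, against 40.7% of 236 over the 47S pre-rRNA. The PAR part of this call rests on a tag-only mean of 0 and the pseudocount of 1, and with a pseudocount of 10 there were 0 such windows. The mean of 4748 to 4797 was 27.0 normalised hits with the tag alone and 382 with NKRF after UV, a 5.88-fold higher share (4.54 to 7.75). After PAR it was 0 with the tag alone and 181 with NKRF. Set against a floor of 3 reads spanning the window, the NKRF PAR coverage was at least 6.78-fold higher on the scale of all reads, but the floor gave no lower bound above 1 for the share of 47S. The other window called higher after PAR, 4048 to 4097, had a mean of 0 with the tag alone and 29.2 with NKRF, at least 1.09-fold higher on the scale of all reads, and no bound above 1 for its share of 47S. Another 2 windows were higher with UV and lower with PAR, against 6.78% of 236. They were 3598 to 3647, 2.56-fold higher (2.21 to 2.96) and 2.49-fold lower (1.32 to 4.34), and 4948 to 4997, 2.33-fold higher (2.11 to 2.59) and 1.94-fold lower with an interval that spans 1 (0.606 to 4.83). No window was lower in both modes.

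**Figure D2:**
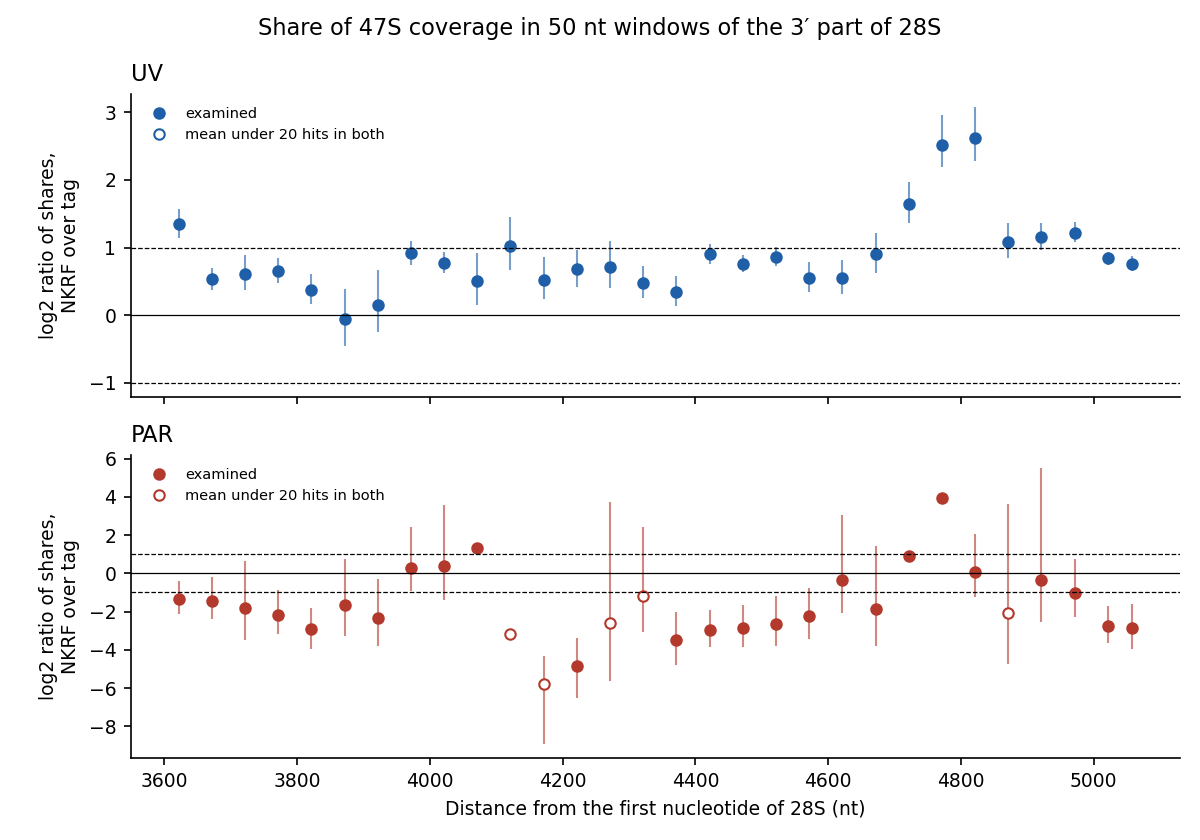
The log2 ratio of the share of 47S coverage, NKRF over tag, in the 30 windows of 50 nt (points, pseudocount 1) against the distance from the first nucleotide of 28S in nt, for UV above and PAR below. Vertical lines are 95% counting intervals of the ratio without the pseudocount, missing where a library had no coverage, open points were not examined and dashed lines mark 2-fold. The highest UV points are the neighbouring windows 4748 to 4797 and 4798 to 4847, and most PAR points lie below 0.

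Within the 3′ part, the windows with the highest NKRF to tag ratio after UV were 4748 to 4797 and 4798 to 4847. They lie in domain VI, between the sarcin-ricin loop and the 3′ end. Positions 4698 to 4997 formed an unbroken run of 6 windows called higher with UV, singled out after its values were seen. Mean coverage over the 300 nt was 90.9 normalised hits with the tag alone and 609 with NKRF after UV, and 6.75 and 94.5 after PAR. As a share of the 47S coverage the run was 2.79-fold higher with NKRF after UV (2.57 to 3.02), while after PAR the ratio was 1.18 (0.606 to 2.61). On this scale the rest of 28S was above the run in both modes, 3.92-fold higher after UV (3.83 to 4.01) and 3.89-fold after PAR (3.26 to 4.66). As a share of the coverage of the 3′ part itself the run went from 11.7% to 18.1% with UV, 1.55-fold (1.41 to 1.69), and from 7.10% to 27.7% with PAR, 3.91-fold (1.86 to 8.24). The tag-only PAR value rested on at least 9 reads. The run was chosen on the UV libraries, and the PAR values come from other libraries. It is rich in G and C, at 76.3% against 60.4% for the whole 3′ part, and poor in T, at 12% against 19.5%. Within it, window 4798 to 4847 had the highest UV ratio, with means of 29.8 and 454 normalised hits, 6.34-fold higher (4.86 to 8.41). Its PAR means of 15.8 and 207 gave a ratio of shares of 1.10 (0.417 to 4.10).

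The printed stretch from the peptidyl transferase letters to the sarcin-ricin letters kept its share of the 3′ part within counting error after UV. With NKRF after PAR it held less. This stretch, 4438 to 4616, took up 12.2% of the length. After UV it held 19.7% of the coverage of the 3′ part with the tag alone and 18.8% with NKRF, 0.954-fold (0.891 to 1.02). After PAR it held 19.1% and 11.4%, 0.598-fold (0.374 to 0.955), with at least 23 tag-only reads. As a share of the 47S coverage the stretch was 1.72-fold higher with NKRF after UV (1.60 to 1.86) and 5.56-fold lower after PAR (3.36 to 8.85), the directions of the whole 3′ part on that scale. Around GATGTCG (4448 to 4454), whose letters occur once in the 47S pre-rRNA, the mean over 50 nt was 2.72 times the mean of the 3′ part with the tag alone and 2.85 times with NKRF after UV. Around CGTGAGA (4540 to 4546), the only match in the 3′ part of 2 in the 47S pre-rRNA, these values were 0.964 and 1.01. Around the sarcin-ricin letters GTACGAG (4600 to 4606), which also occur once, they were 0.483 and 0.395. The 3 landmarks thus had the same order with and without NKRF after UV. After PAR the order was the same, at 2.29, 1.48 and 0.743 with the tag alone and 1.42, 1.08 and 0.610 with NKRF. The letters searched for the P loop, TGGGGCG, matched at 5 places of the 47S pre-rRNA and 2 of the 3′ part, 4194 to 4200 and 4657 to 4663, and those for the A loop, TGTTCGC, at 0. Around the first of the P loop matches the mean coverage was 86.3 and 294 normalised hits after UV with the tag alone and NKRF, and 41.6 and 8.40 after PAR. The second match lies 3′ of the sarcin-ricin letters, so by position in domain VI and outside the P loop of domain V. Around it the UV values were 89.0 and 346. The PAR values were 7.74 and 39.2, higher with NKRF on the scale of all reads. That tag-only mean is under the 8.91 normalised hits of 1 read. As a share of the 47S coverage, the overlapping window 4648 to 4697 was 3.36-fold lower with NKRF after PAR. Its interval spans 1 (0.377 to 14.2), with at least 2 tag-only reads. Searches were on the printed strand only and exact. The printed stretch holds tgttcac, with A in place of the G of the A loop letters, which an exact search passes over.

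The NKRF PAR library covered 89.7% of the 3′ part, against 97.5% of the rest of 28S. It left 151 nt uncovered, and 140 of them lay in 2 runs, positions 4102 to 4191 and 4263 to 4312. Both runs were covered after UV, at 38.9 and 27.3 normalised hits with the tag alone and 175 and 151 with NKRF. The tag-only PAR means over them were 2.30 and 0, so these gaps do not set NKRF apart. The 2 runs held 11 T of 90 nt and 13 T of 50 nt. The part of T in the letters was 17.2% at uncovered and 19.7% at covered positions. The tag-only PAR library covered 63.6% of the 3′ part, against 43.1% of the rest of 28S. It left 536 nt uncovered, of which 8 runs of at least 20 nt held 525. A count of 0 there allows up to 3 reads, or 26.7 normalised hits.

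The third comparison asked which nucleotides of the 3′ part were misread in the cDNA, and whether this depended on NKRF. In the UV libraries 3 positions stood out both with and without NKRF. At least 10% of the coverage was substituted in both libraries at 3 of 931 positions with at least 50 reads in each, 0.322%, against 0.490% over the 47S pre-rRNA. At position 4530, a T of the peptidyl transferase region where 3-methyluridine is known in human 28S, 27.8% (18 to 39.1) of 76 reads were substituted with the tag alone and 35.8% (32.0 to 39.9) of 583 with NKRF. At position 3677, also a T, the values were 23.8% (19.1 to 28.9) of 307 reads and 19.4% (17.2 to 21.7) of 1247. Position 3677 was substituted in the NKRF PAR library too, in 45.2% (28.1 to 63.6) of 33 reads. At position 4910, a G, nearly every read differed from the deposited letter, with substitutions in 93.8% (86.2 to 98.0) of 81 and 94.6% (92.1 to 96.5) of 461. Deletions there took 6.25% of the coverage with the tag alone and 4.95% with NKRF, so hardly any of the rest matched the deposited letter. At each of the 3 positions the intervals of the UV libraries overlap. Neither PAR library had coverage at 4910, where the uncovered stretch ran from 4909 to 4912 with NKRF and from 4869 to 4933 with the tag alone. Which base replaced the deposited letter is not given in the files.

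Single-library changes were mostly at A and mostly in the tag-only library. Taken alone, 20 of 931 positions (2.15%, against 2.43% over the 47S pre-rRNA) were substituted in at least 10% of the tag-only UV coverage and 12 of 1461 (0.821%, against 1.08%) in that of NKRF. At positions with 50 reads in both libraries, 17 passed with the tag alone and not with NKRF, and 14 of them were A. They reached 10.4 to 21.9% with the tag alone and 0.726 to 7.43% with NKRF. Over all A of the 3′ part, 5.05% of the coverage was substituted with the tag alone and 2.74% with NKRF. The A of the rest of 28S gave 5.28% and 2.84%. Another 2 positions passed with NKRF and not with the tag alone, named after their values were seen. Position 4600, the G that opens the sarcin-ricin letters, was substituted in 16.0% (12.2 to 20.5) of 318 reads with NKRF and in 7.53% (2.88 to 16.0) of 78 with the tag alone. Position 3836, an A, gave 10.5% (6.02 to 16.2) of 155 and 2.99% (0.435 to 12.3) of 56. In both cases the intervals overlap.

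Deletions, which reverse transcription tends to leave at UV crosslinks, were most frequent at T. Over the T of the 3′ part 0.455% of the coverage was deleted with the tag alone and 0.457% with NKRF. At least 5% was deleted at 10 of 931 positions with the tag alone (1.07%, against 0.706% over the 47S pre-rRNA) and at 9 of 1461 with NKRF (0.616%, against 0.630%). Of the 931 positions, 4 passed in both libraries, 0.430%, against 0.235% over the 47S pre-rRNA. They were 3991, 4351, 4435 and 4555. At 4351, the first of 4 T in a row, 19.1% (13.3 to 25.9) was deleted with the tag alone and 21.6% (18.1 to 25.5) with NKRF. At 4435, the first of 5 T, it was 8.98% (5.74 to 12.8) and 6.81% (5.65 to 8.12). Position 3991, a G, gave 6.77% (3.67 to 10.9) and 5.01% (3.95 to 6.32). Position 4555, the first of 4 T, was the exception. It was deleted in 25.5% (18.3 to 34.0) of 129 reads with the tag alone and in 8.58% (6.65 to 10.8) of 735 with NKRF, and these intervals do not overlap. Deletions at the next T made the gap smaller for the whole run of 4 T, with 26.2% (19.0 to 34.8) and 12.8% (10.4 to 15.5), which do not overlap either.

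Among the other deleted positions, 3993 was higher with the tag alone, at 11.2% (7.18 to 15.9) against 4.85% (3.83 to 6.06) with NKRF, as was 4649, a G, at 11.5% (5.92 to 19.8) against 1.47% (0.639 to 3.24), each with intervals that do not overlap. Position 4254, a G, gave 8.47% (2.22 to 19.2) with the tag alone and 0.488% (0.0114 to 2.47) with NKRF, with intervals that overlap. In the NKRF library the second highest was 4798, the first of 9 C in a row, with 18.5% (14.9 to 22.7) of 405 reads deleted. It lies inside the run of windows called higher after UV, 4698 to 4997. In the tag-only library 16 reads covered it, too few to be counted, and 26.3% (7.27 to 52.4) had the deletion. Positions 3957, a T, and 3955, a G, reached 9.92% (5.50 to 16.0) and 8.27% (4.35 to 14.0) with NKRF, and only 27 tag-only reads covered each. In a run of equal letters the deleted base cannot be told from its neighbours. Summed over their runs, the deletions at 4351 came to 21.1% (15 to 28.4) with the tag alone and 27.0% (23.0 to 31.4) with NKRF, and those at 4435 to 9.23% (6.09 to 13.2) and 7.33% (6.19 to 8.66).

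**Figure D3:**
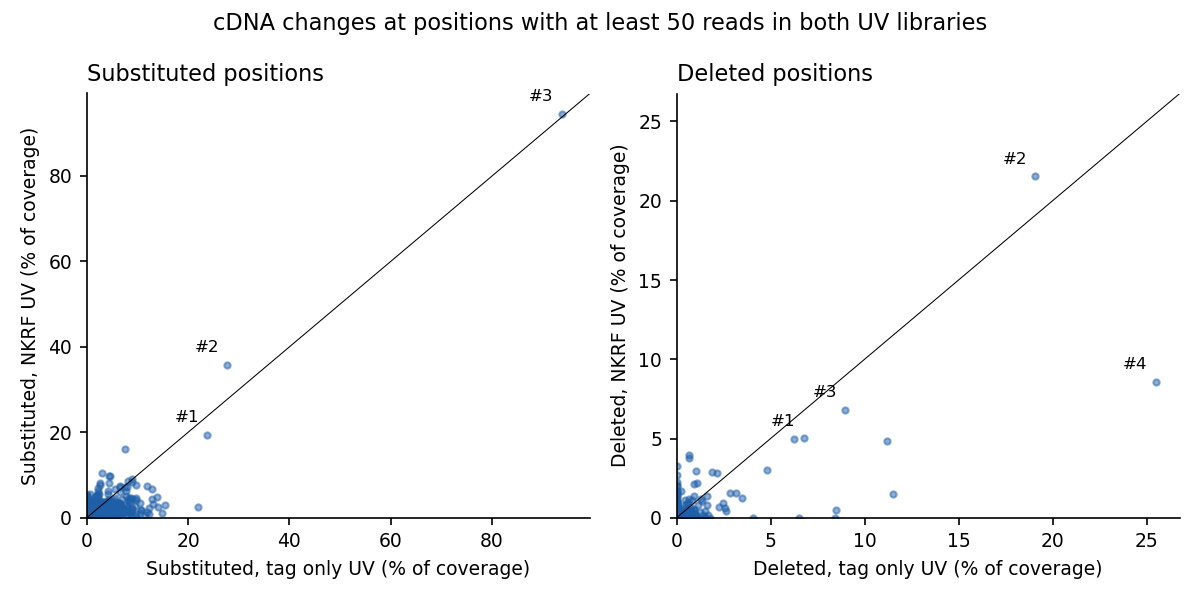
Share of the coverage substituted (left) and deleted (right) at each of 931 positions with at least 50 reads in both UV libraries, tag only on the x axis and NKRF on the y axis, in percent, with the line of equality. Numbered points passed 10% or 5% in both libraries, which are 3677, 4530 and 4910 on the left and 3991, 4351, 4435 and 4555 on the right, in this order. Point #4 on the right, position 4555, lies far below the line, at 25.5% and 8.58%.

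After 4-thiouridine, the deposited values of the NKRF library held substitutions at 146 of the 287 T of the 3′ part and at 0 of its other nucleotides. That is 50.9% of its T, against 74.5% of the 466 T in the rest of 28S, where mean coverage was 470 normalised hits against 69.4. The A, C and G of the rest of 28S had 0 as well. In the NKRF UV library 2.74%, 1.29% and 0.993% of the coverage was substituted at the A, C and G of the 3′ part. Whether the PAR values count changes other than at T is not given in the sources used here, so the 0 is not read as a result. The changes counted may differ between PAR and UV. Over all T, 17.0% of the coverage was substituted, against 18.5% in the rest of 28S. Of 146 T with at least 10 reads, 11 were substituted in at least 50% of the coverage, 7.53%, against 8.29% of 1507 over the 47S pre-rRNA. Among the 10 T with at least 50 reads, 2 passed 50%. Position 4807, in the coverage maximum and just after the run of 9 C, was changed in 98.3% (93.4 to 99.8) of 106 reads, and the tag-only PAR coverage there was 27 normalised hits, about 3 reads. In the UV libraries it was substituted in 7.76% (5.20 to 10.8) of 378 NKRF reads and in 5.26% (0.158 to 30.2) of 16 tag-only reads. Position 3993 was changed in 85.6% (75.9 to 92.6) of 77 reads. It is also the T named above for its UV deletions, and its tag-only PAR coverage was 9 normalised hits, about 1 read.

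Of the other T with at least 50 reads, 3607 reached 45.1% (32.1 to 58.4), 3616 reached 37.2% (25 to 50.9), 3995 reached 15.6% (8.51 to 25) and 4779 reached 14.1% (6.38 to 26.2). Position 3606, the T beside 3607, was changed in 8.56% (2.86 to 19.0), and 3613, 3657 and 4781 in 3.91%, 3.77% and 1.39%. Neighbouring T therefore differed widely, as 3606 did from 3607 and 3995 from 3993, each pair with intervals that do not overlap. The other 9 of the 11 T past 50% were 3641, 3704, 3745, 3884, 3912, 4406, 4763, 4946 and 5022, with 10 to 38 reads each and 50 to 70.7% substituted. The highest of these was position 4763 (70.7%, 44.0 to 89.7, of 17 reads), the capital of the window that was higher in both modes. Position 4530, misread in both UV libraries, had only 2 NKRF PAR reads.

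**Figure D4:**
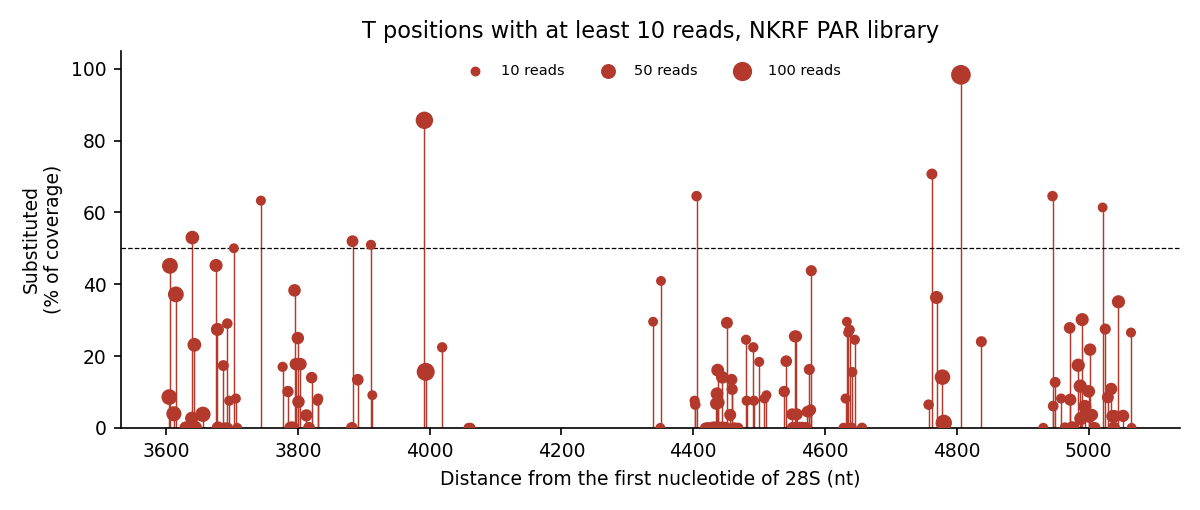
Share of the coverage substituted at the 146 T with at least 10 reads in the NKRF PAR library (percent, y axis) against the distance from the first nucleotide of 28S in nt. Point area grows with the number of reads and the dashed line marks 50%. The tallest points are positions 4807 and 3993, at 98.3% and 85.6%.

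The last comparison asked whether reads passed the mature 3′ end of 28S. With the tag alone no coverage was seen past the end, and with NKRF a little was. Over the last 50 nt, positions 5021 to 5070, mean coverage was 801 normalised hits with the tag alone and 3334 with NKRF after UV, and 63.1 and 98.1 after PAR. From the maximum, coverage was down to under 50% within the last 10 and 12 nt with UV. At position 5069 it was 147 and 559 normalised hits and at the last nucleotide, 5070, it was 13 and 48. Of the reads over this last C, 92.3% (58.7 to 99.8) of 11 with the tag alone and 85.4% (74.2 to 94.4) of 52 with NKRF had a substitution. The first nucleotide of the 3′ ETS had 0 normalised hits with the tag alone and 5 with NKRF. At most 5 reads thus crossed the end with NKRF after UV, 0.0958% (0.0311 to 0.224) of the 5217 at the maximum. With the tag alone it was 0 of 964, which allows a share of up to 0.311%, so the libraries cannot be told apart here at this depth.

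After PAR the NKRF library had 18 normalised hits, 4 reads, both at the last nucleotide of 28S and at the first of the 3′ ETS, so at most 4 reads crossed, 11.8% (3.30 to 27.5) of the 34 at the maximum. The intervals of the NKRF libraries do not overlap, with PAR above UV. With the tag alone it was 0 of 9, which allows a share of up to 33.3%, so the PAR libraries cannot be told apart at the end either. Past the end, NKRF coverage fell to 1 normalised hit with UV and to 0 with PAR, then came back. Over the first 50 nt of the 3′ ETS the mean was 2.16 with UV and 5.48 with PAR. Over the second 50 nt it was 16.7 with a maximum of 25 with UV, and 98.6 with a maximum of 155, 72 to 74 nt past the end, with PAR. The PAR mean of these second 50 nt was as high as that of the last 50 nt of 28S, 98.1. With the tag alone, coverage of the 778 nt of the 3′ ETS was 0 in both modes, which allows up to 3.56 normalised hits with UV and 26.7 with PAR at any place. The means of the second 50 nt with NKRF were above these limits and those of the first 50 nt were below them.

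**Figure D5:**
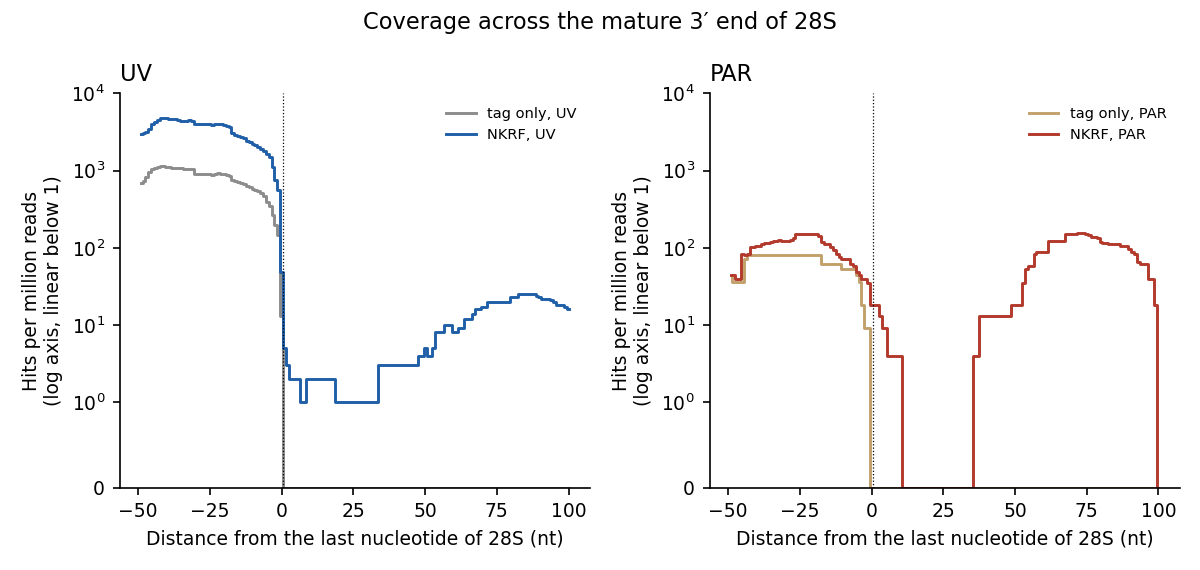
Coverage in normalised hits (log axis, linear below 1) against the distance from the last nucleotide of 28S in nt, from 49 nt before it to 100 nt after it, with UV on the left and PAR on the right. The dotted line marks the mature 3′ end. The tag-only lines end at it or just before it, while the NKRF lines return within the 3′ ETS, to 25 with UV and 155 with PAR.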

How the data were processed

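RNA from 4 libraries was analysed. The submitters' processing notes name Bowtie2 2.2.4. The mapping reference, the read filters and any removal of duplicates were not given in the sources used here. Per the file headers, the deposited coverage signal of each 47S nucleotide is a number of hits, with substitutions and, for UV, deletions on the same scale. The score of each RNA class in the deposited overview summed to 1000214 to 1000504, and the coverage was taken to be scaled by the authors to 1000000 reads and rounded. The value of 1 read was found from how often each low value occurs. For NKRF UV, where every whole value occurs, the substitution and deletion values were read too.

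Reads behind a region are the least number that can produce its profile. The 95% intervals are Clopper-Pearson (exact) for a share, log-normal for a ratio of shares of the 3′ part or within it, and conditional binomial for a ratio of windows, stretches or all reads. Reads have no molecular identifiers in the labels' protocols, so intervals cover counting error. Windows of 50 nt were tiled from position 3598 and cover the whole 47S. Named windows were the 3 highest of each library, those higher or lower in both modes, and those with opposite calls. Named positions were those substituted in at least 10% of 50 reads in both UV libraries, the 6 most deleted in each UV library, the 10 most substituted T of NKRF PAR with at least 50 reads, and each coverage maximum. The region and rules were chosen with earlier results of these data known. Deletions of a run were summed and divided by its mean coverage. The scripts were tested on simulated data. Python 3.11.15, NumPy 2.4.6, pandas 2.3.3, SciPy 1.17.1 and Matplotlib 3.10.9 were used.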

Additional observations from a re-analysis of the deposited data

Results flagged for a closer look

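The 3′ part of 28S moved in opposite directions in the 2 crosslinking modes as a share of 47S coverage, at a log2 ratio of NKRF over tag of 0.85 with UV and -1.73 with PAR. So did positions 3598 to 3647, at 1.34 and -1.34. Positions 4948 to 4997 had 1.22 and -1.02, but their PAR interval spans 1 (1.94-fold lower, 0.606 to 4.83), with at least 5 tag-only reads. Scaled to all reads, both windows were higher with NKRF in both modes, 6.15-fold and 5.61-fold with UV and 4.78-fold and 6.13-fold with PAR. With 1 library in each group, these differences between the modes were not tested. The 18S share of the same libraries, which is part of the total, was 82.2% and 42.2% with UV and 68.3% and 4.20% with PAR for the tag alone and NKRF, and its part in the result was not tested beyond the values without 18S, -0.85 and -3.33.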

How the results depend on the processing

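No paired analysis was possible because each group has 1 library and the labels carry no replicate numbers. Of 57 alternative values, 21 stayed within the interval or within 1.5 times the count. The log2 ratio of the 3′ part reversed with UV as a share of 28S coverage (-0.81) and without 18S in the total (-0.85, chosen after seeing the data, as were all values without 18S), and with PAR when scaled to all reads (1.84). It moved to 2.12 with UV scaled to all reads. With PAR it was -2.95 as a share of 28S, -2.07 without the 3 highest NKRF windows, -0.70 without positions where the tag library was at 0, and -3.33 without 18S. Scaled to all reads, windows higher numbered 30 with UV, 17 with PAR and 17 in both modes, and windows lower with PAR 1. With a pseudocount of 10, windows higher with PAR and in both modes were 0 and 0. Windows of 100 nt gave 3 higher with UV, 1 higher and 8 lower with PAR. Windows of 25 nt gave 15, 7 and 29, and 3 higher in both modes. A fold of 4 gave 2, 1 and 11. Without 18S, UV gave 0 higher and 13 lower, and PAR 1 higher. The counts by window length and fold move with the number of windows or the threshold by construction. Positions substituted in both UV libraries numbered 1 at 100 reads and 18 at 5%. Deleted positions numbered 37 at 2% and 2 at 10% with NKRF, and 18 at 20 reads, 20 at 2% and 4 at 10% with the tag alone. T past 50% with PAR numbered 4 at 20 reads, and 2 passed 75%. The tag-only PAR library, with at least 93 reads over the 3′ part, limits every PAR ratio. The cause of the other shifts was not tested.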
